A study of Mus musculus with 10 samples.

Results

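The genes described here are 8 genes of sphingolipid and ganglioside metabolism, Cers5, Ugcg, B4galt6, St3gal5, B4galnt1, Hexa, Gm2a and Psap. They were measured in whole testes of 10 day old SCARKO and control mice, on 17 of the 22690 probe sets of an array that named 12393 genes. A probe set was taken when the platform annotation named 1 gene and that gene was one of the 8. The genes were picked with earlier results of the SCARKO and control comparison known, so their differences between the groups are a description: no p is given for them, and the count of those past the threshold of the fit over the whole array stands only beside its background. A filter on dim signals kept 13 of the 17 probe sets, which cover 7 of the 8 genes. Both probe sets of B4galnt1 and 2 of the 4 of B4galt6 were too dim.

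SCARKO mice lack the response to androgen in Sertoli cells alone, the somatic cells that support germ cells in the tubule. The control mice carried AMHCre, a Cre recombinase transgene under the promoter of the anti-Müllerian hormone gene, which is active in Sertoli cells; the labels name no further allele for either group. Each of the 10 arrays held RNA of 1 pool, made from 1 testis of each of 3 littermates, with 5 SCARKO pools and 5 control pools matched by litter into 5 pairs. The genotype in an array's title is contradicted by its description in pairs 1 to 4, and only in pair 5 do both labels match. Groups follow the titles, and values of pair 5 are given beside those of the others. In pair 5 the log2 ratio had the same sign as the mean of pairs 1 to 4 for 15 of the 17 probe sets. The exceptions were both probe sets of Psap. The genes were chosen on this contrast and the share over all probe sets was not counted, so nothing about the labels is read from this. The targeted gene is not analysed here.

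Sphingolipids are built on ceramide, which ceramide synthases make by joining a fatty acid to a sphingoid base. Glucose, galactose and sialic acid are then added in turn in the Golgi, which gives the simple ganglioside GM3, and B4galnt1 adds the sugar that opens the way to the more complex gangliosides. Lysosomes take the same chains apart with hydrolases that need small lipid-binding helper proteins. In the testis, germ cells carry specialised glycosphingolipids, Sertoli cells take up and degrade the material that germ cells shed, and male mice without B4galnt1 are known to be infertile.

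Signals were linear Affymetrix intensities, scaled to a trimmed mean of 100 on each of the 10 arrays, with array medians from 36.4 to 37.6. Defining markers of Sertoli cells and germ cells were present in both groups: Sox9 had signals of 154.8 to 186.8 in SCARKO pools and 147.6 to 182.7 in control pools, and Ddx4, a germ cell helicase gene, had 446.4 to 514.5 in SCARKO pools and 440.7 to 526.6 in control pools. The Sertoli marker Amh was dimmer, at 17.5 ± 2.71 in SCARKO pools and 30.1 ± 11.4 in control pools (SD, n = 5 each). Its SCARKO mean lay under 19.3, the mean signal that the dim filter required. Amh was lower in SCARKO in all 5 pairs but was not called (log2 fold change -0.71, SE 0.20, limma adjusted p = 0.065). Over 10 Sertoli markers the summed signal was 5220.3 to 5453.0 in SCARKO pools and 5283.9 to 5819.6 in control pools, where Cldn11 fell by 0.68 on the log2 scale and Fshr rose by 0.42. Over 9 germ cell markers it was 4034.4 to 4780.6 in SCARKO pools and 3914.5 to 5037.3 in control pools, and the meiotic cohesin gene Stag3 fell. Sums of the macrophage (8 of 10 markers kept), Leydig (5 of 7), myoid (5 of 5) and endothelial (6 of 6) lists also overlapped between the groups, and no member of these lists was called. The sums add linear signals, so the brightest genes weigh most. The Sertoli marker Clu had means of 2498 in SCARKO pools and 2580 in control pools, and the myoid marker Acta2 had 1483 and 1532. Overlapping sums thus say little about the dimmer markers. In whole testis RNA, fewer cells of a type and less RNA per cell cannot be told apart.

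Of the 8 genes, B4galnt1, B4galt6, Gm2a and Cers5 were lower in SCARKO pools, Ugcg was slightly higher, and St3gal5, Hexa and Psap had groups that overlapped widely. Among the 13 kept probe sets, the groups of 5 pools did not overlap for 5, all lower in SCARKO, where 2.48% of the 13576 kept probe sets were separated in that direction and 2.03% in the other. In all 5 pairs, 5 were lower and 1 was higher, where 8.55% and 9.97% of all kept probe sets were. The same 5 probe sets, of 3 genes, were past the threshold of limma's test over all kept probe sets (adjusted p under 0.05), and all were lower in SCARKO, while 5.19% of all kept probe sets were past it in either direction, 3.26% lower and 1.93% higher. Because the genes were chosen on this contrast, nothing is read from these counts. The median log2 fold change, SCARKO minus control, was -0.12 over the 13 kept probe sets and 0.01 over all kept probe sets.

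**Figure D1:**
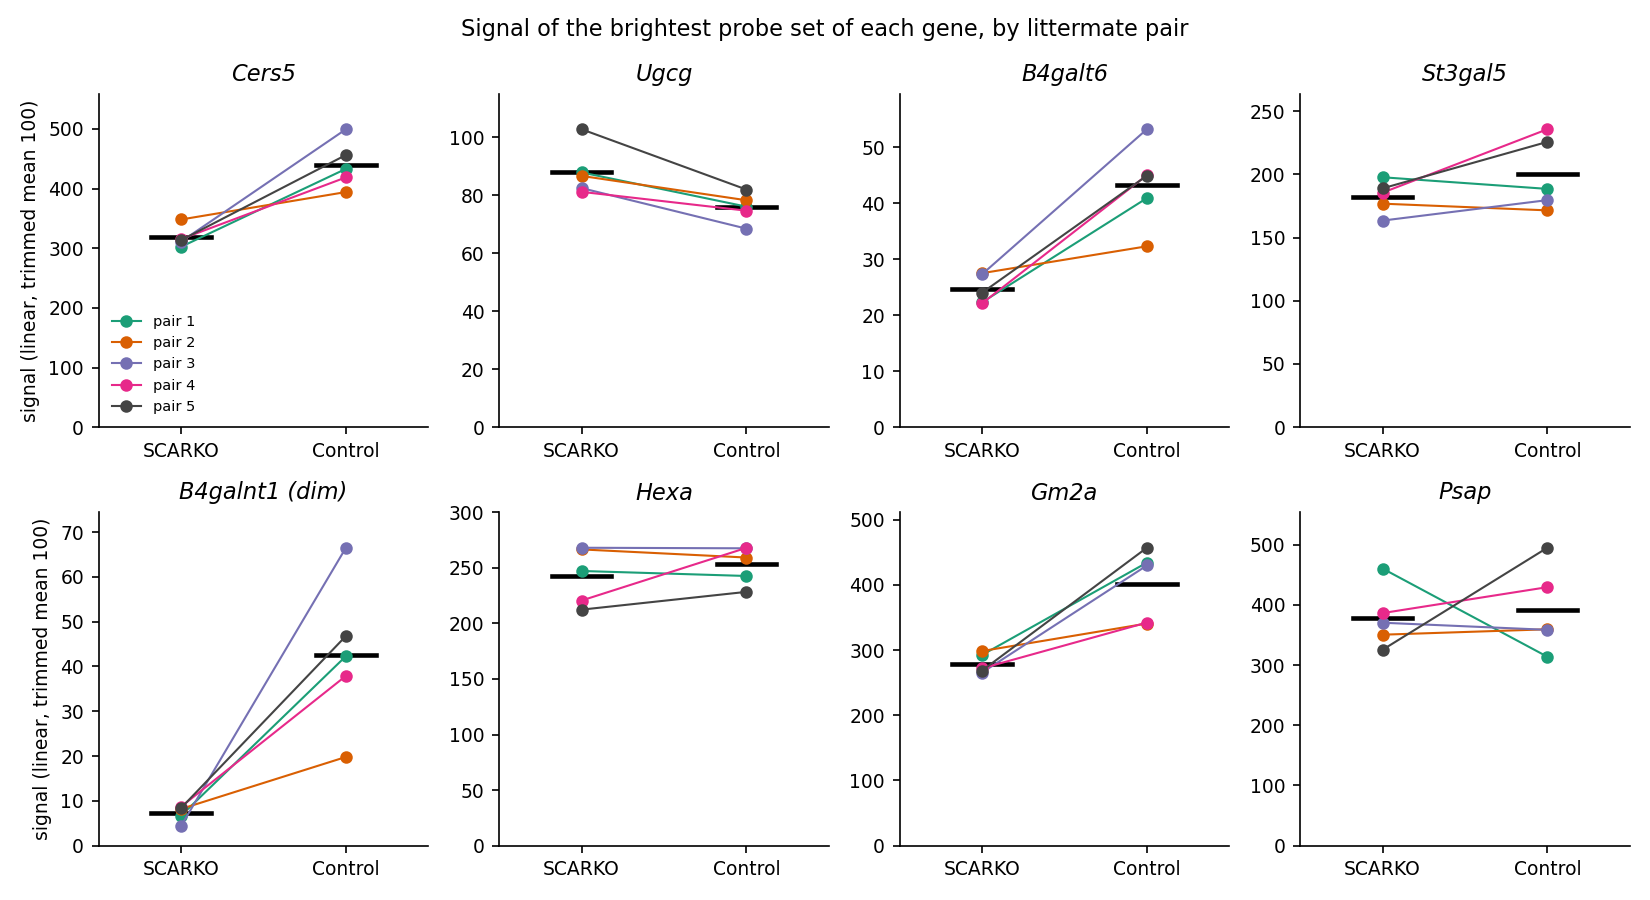
Signal (linear scale, trimmed mean 100) of the brightest probe set of each of the 8 genes, with SCARKO pools left and control pools right in each panel; points are pools, lines join littermate pairs and black bars are group means (n = 5). Points do not overlap between groups for Cers5, B4galt6, B4galnt1 and Gm2a, with SCARKO lower, whereas the lines of Psap cross.

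The route starts with Cers5, one of the ceramide synthases, which prefers palmitoyl chains. Its 1 probe set had signals of 302.4, 348.2, 311.1, 315.3 and 313.5 in SCARKO pools 1 to 5, against 433.1, 394.2, 499.5, 418.8 and 456.3 in control pools 1 to 5. Each SCARKO pool lay below each control pool, and the SCARKO pools were closely grouped, with a coefficient of variation of 5.51% against 9.08% in control pools. The means were 318 ± 17.5 in SCARKO pools and 440 ± 40 in control pools (SD, n = 5 each). The mean log2 ratio within pairs was -0.47 ± 0.19 (SD over 5 pairs), or 1.38-fold lower. It was -0.54 in pair 5 and averaged -0.45 over pairs 1 to 4.

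Ugcg encodes ceramide glucosyltransferase, which adds the first sugar and commits ceramide to most glycosphingolipids. Its brightest probe set had signals of 87.9, 86.7, 82.5, 81.2 and 102.8 in SCARKO pools, against 76.1, 78.3, 68.5, 74.7 and 82.0 in control pools. The SCARKO pool was the higher one in every pair, but the groups overlapped. The other 2 probe sets were higher in 4 of 5 pairs each. Mean log2 ratios were 0.21 ± 0.08, 0.19 ± 0.18 and 0.17 ± 0.18 for the 3 probe sets (SD over 5 pairs), which is 1.16-, 1.14- and 1.13-fold higher. Pair 5 gave log2 ratios of 0.33, 0.37 and 0.41, above the mean of pairs 1 to 4 for each probe set (0.19, 0.14 and 0.11).

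B4galt6 encodes a galactosyltransferase that makes lactosylceramide from glucosylceramide. The first of its kept probe sets had signals of 22.3, 27.5, 27.3, 22.1 and 24.0 in SCARKO pools, against 40.9, 32.3, 53.2, 45.0 and 44.9 in control pools. The second had 17.9, 22.3, 20.6, 19.9 and 19.7 in SCARKO pools, against 36.1, 30.8, 38.6, 35.5 and 44.0 in control pools. Neither overlapped between groups, and the SCARKO pool was lower in all 5 pairs on both. The mean log2 ratios were -0.80 ± 0.32 and -0.88 ± 0.26 (SD over 5 pairs), or 1.74- and 1.83-fold lower. The SCARKO signals lay close to 19.3, the mean signal that the filter required, and adding 16 to each signal before log2 brought the values to -0.54 and -0.55. The 2 dim probe sets had signals of 9.6 to 15.8 in SCARKO pools and 12.5 to 19.6 in control pools, overlapped between groups, and gave -0.28 ± 0.44 and -0.25 ± 0.35. The companion galactosyltransferase gene B4galt5 was too dim to be fitted.

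St3gal5 encodes GM3 synthase, the sialyltransferase at the entry to the gangliosides. Its brighter probe set had signals of 197.8, 176.9, 163.5, 185.6 and 189.0 in SCARKO pools, against 188.6, 171.6, 179.7, 235.8 and 225.8 in control pools. The control pools of pairs 4 and 5 were the high ones, and the other pools of both groups overlapped. The mean log2 ratio was -0.13 ± 0.18, and it was 0.04 ± 0.16 for the other probe set (SD over 5 pairs). The probe sets thus differed in sign, and neither difference exceeded the spread over pairs.

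B4galnt1 encodes the GM2/GD2 synthase. Its brighter probe set had signals of 6.7, 8.2, 4.4, 8.7 and 8.4 in SCARKO pools, against 42.3, 19.8, 66.5, 37.9 and 46.8 in control pools. The lowest control pool, of pair 2, was still above the highest SCARKO pool. The means were 7.28 ± 1.79 in SCARKO pools and 42.7 ± 16.8 in control pools (SD, n = 5 each), a mean log2 ratio of -2.49 ± 0.96 (SD over 5 pairs). Every SCARKO signal was under the filter's 19.3, so no fold is given; adding 16 to each signal brought the log2 value to -1.29. The mean log2 signal over all 10 arrays was 4.07, under the 4.27 that the filter required, so the probe set was not in the fit. Groups did not overlap, with SCARKO lower, for 0.508% of all probe sets left out as dim. Nothing is read from that share, since the gene was chosen on this contrast. Every control signal of this probe set was also above 19.3. Pair 5 gave -2.48, and pairs 1 to 4 averaged -2.49. The other probe set of B4galnt1 was dim in both groups, with 2.2 to 4.2 in SCARKO pools and 3.8 to 7.5 in control pools, and was lower in SCARKO in all 5 pairs although the groups overlapped.

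**Figure D2:**
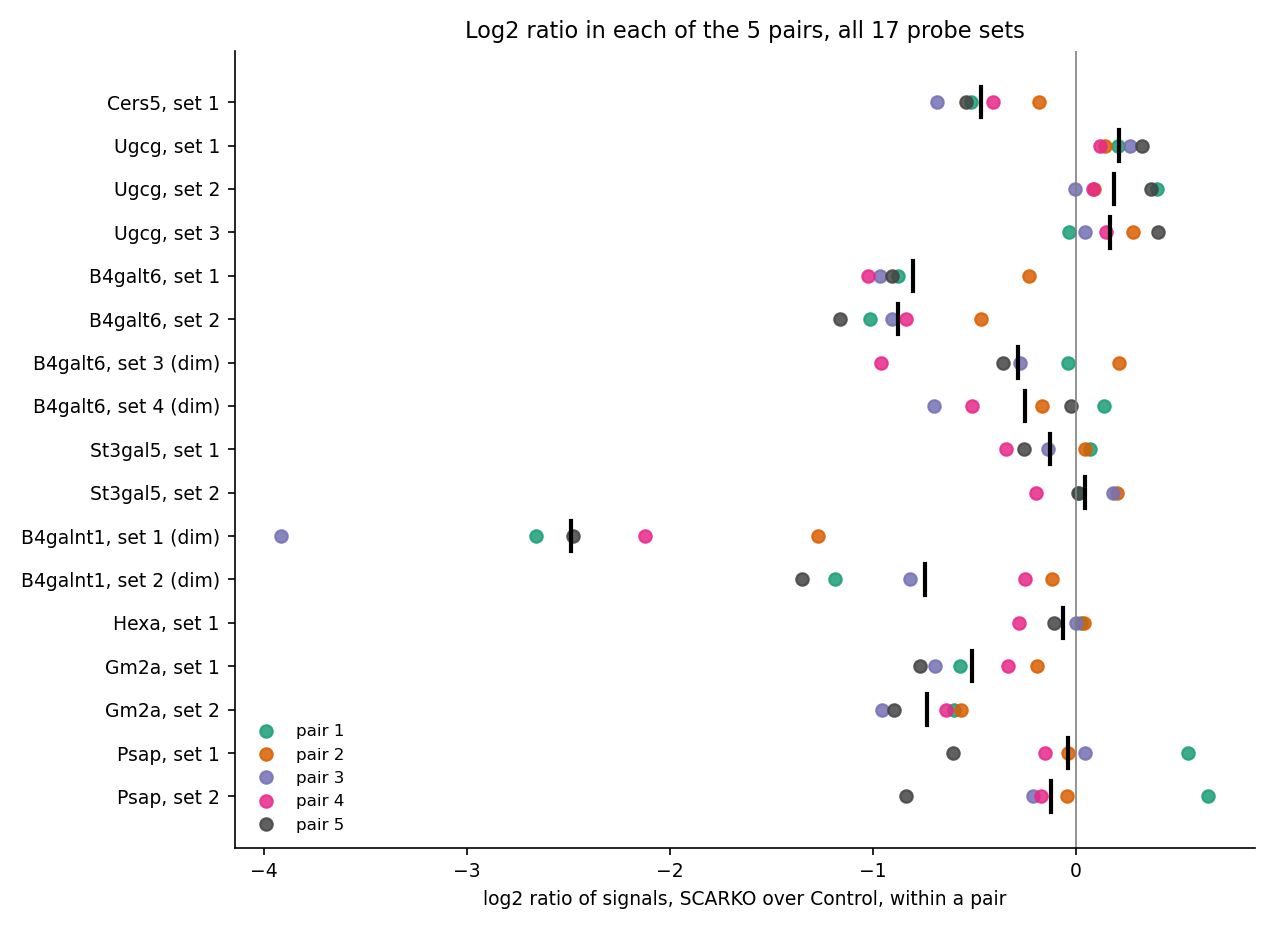
Log2 ratio of signals, SCARKO over control, within each of the 5 littermate pairs for all 17 probe sets, in the order of the pathway; black ticks are means over pairs and "dim" marks the 4 probe sets left out of the fit. Both probe sets of Gm2a, both of B4galnt1, the kept ones of B4galt6 and the 1 of Cers5 lie left of 0 in every pair. The brighter one of B4galnt1 has the widest spread, and pairs 1 and 5 lie at opposite ends for Psap.

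On the lysosomal side, Gm2a encodes the GM2 activator, the helper protein that lifts ganglioside GM2 out of the membrane for hydrolysis. One probe set had signals of 292.4, 298.4, 265.4, 271.9 and 268.4 in SCARKO pools, against 434.0, 340.6, 429.6, 342.1 and 456.8 in control pools. The other had 190.7, 215.6, 213.0, 191.7 and 214.1 in SCARKO pools, against 289.2, 319.5, 413.2, 298.7 and 398.6 in control pools. On both, every SCARKO pool lay below every control pool, and the SCARKO pools varied less, with coefficients of variation of 5.38% and 6.17% against 13.8% and 16.9% in control pools. The mean log2 ratios were -0.51 ± 0.24 and -0.73 ± 0.18 (SD over 5 pairs), or 1.42- and 1.66-fold lower. Pair 5 gave -0.77 and -0.90, against means of -0.45 and -0.69 over pairs 1 to 4.

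Hexa encodes the alpha subunit of beta-hexosaminidase, the enzyme that works with the GM2 activator. Its signals were 247.2, 266.6, 268.1, 220.6 and 212.4 in SCARKO pools, against 242.7, 259.3, 267.6, 268.0 and 228.4 in control pools. The groups overlapped over nearly their whole range, and the mean log2 ratio was -0.06 ± 0.13 (SD over 5 pairs). Over pairs the log2 ratio of Hexa ranged from -0.28 to 0.04, those of the Gm2a probe sets from -0.77 to -0.19 and from -0.96 to -0.57, and the difference between the genes was not tested.

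Psap encodes prosaposin, the precursor of the saposins, which help several other lysosomal hydrolases. Its brighter probe set had signals of 460.6, 350.6, 370.5, 386.5 and 325.5 in SCARKO pools, against 314.0, 359.6, 358.7, 429.6 and 495.1 in control pools. The highest SCARKO pool was in the pair with the lowest control pool, and the lowest SCARKO pool was in the pair with the highest control pool. Log2 ratios were 0.55 in pair 1 and -0.61 in pair 5, and on the other probe set 0.65 and -0.84, so both probe sets showed the same split. The means over pairs, -0.04 ± 0.42 and -0.12 ± 0.53 (SD over 5 pairs), were far smaller than that spread. Without pair 5 they were 0.10 and 0.06, and without pair 1 they were -0.19 and -0.31, so the means depended on both pairs.

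Pair 2 gave the smallest difference for all 6 member probe sets whose groups did not overlap (2 of Gm2a, 2 of B4galt6, and 1 each of Cers5 and B4galnt1), with a median log2 ratio of -0.35 against -0.74 to -0.93 in the other pairs. Among the 442 kept probe sets called lower in SCARKO, pair 2 likewise gave the smallest fall for 259 (58.6%), with a median of -0.22 against -0.38 to -0.45 in the other pairs.

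The upstream sequences of Gm2a and Cers5 are shown because each of their probe sets was lower in SCARKO pools in all 5 pairs. The same held for both probe sets of B4galnt1, for which no upstream sequence was available. They are the 250 bases before the annotated start, from RefSeq on GRCm38.p6, at chr11:55097735-55097984 on the plus strand and chr15:99772516-99772765 on the minus strand, written 5′ to 3′ along the gene with GC boxes in capitals (GGGCGG or its reverse complement CCGCCC).
Gm2a: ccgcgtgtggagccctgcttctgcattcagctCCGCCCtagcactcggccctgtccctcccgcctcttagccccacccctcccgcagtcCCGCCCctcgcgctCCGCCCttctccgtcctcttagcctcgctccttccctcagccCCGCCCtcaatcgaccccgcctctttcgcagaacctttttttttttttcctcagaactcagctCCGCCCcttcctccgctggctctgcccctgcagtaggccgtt
Cers5: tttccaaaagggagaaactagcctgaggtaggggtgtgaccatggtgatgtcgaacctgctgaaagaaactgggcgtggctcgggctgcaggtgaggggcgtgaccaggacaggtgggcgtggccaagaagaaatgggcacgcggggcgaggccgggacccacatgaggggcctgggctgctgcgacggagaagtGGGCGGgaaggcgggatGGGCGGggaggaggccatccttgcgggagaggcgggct
The Gm2a window held 5 GC boxes and the Cers5 window 2, where 33.0% of 32536 distinct windows of the same length held at least 1, 16.9% at least 2 and 1.95% at least 5. The cut-offs of 5 and 2 equal the counts in these windows. The Gm2a window was 65.2% G or C and the Cers5 window 65.6%, against a median of 52.4% over all windows. The shares were not matched for this content, so nothing is read from them. The letters AGAACA, a half-site of the androgen response element, were in neither window on either strand, and 16% of all windows held them. Of the other genes, Ugcg, St3gal5 and Hexa had 2 GC boxes each in their windows and Psap none in either of its 2. A window of Psap was the only one among these with the half-site letters. B4galt6 and B4galnt1 had no window in the table. A match or its absence in 250 bases is a description of these letters, and the starts used in the testis were not measured.

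By profile over the 10 arrays, the genes nearest to B4galt6 and to Ugcg, the members with the lowest and the highest log2 fold change in the fit, were sought among 7973 genes, each represented by its brightest kept probe set. The measure was the root mean square difference between log2 signals centred on each gene's mean. It holds the difference between the groups, so the nearest genes have similar log2 fold changes by construction. For B4galt6 the nearest were Nr0b1 (0.106), which encodes the nuclear receptor DAX1, Plat (0.109), which encodes tissue plasminogen activator, and Septin6 (0.119), a septin gene, against a median of 0.470 over all genes. Their log2 fold changes were -0.86, -0.76 and -0.66. For Ugcg the nearest were Ntan1 (0.046), an asparagine amidohydrolase gene, Gusb (0.052), the gene of the lysosomal enzyme beta-glucuronidase, and Apcdd1 (0.056), a Wnt inhibitor gene, against a median of 0.197. Their log2 fold changes were 0.17, 0.21 and 0.22.

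The rest of the pathway was read from a list of 68 other genes of sphingolipid metabolism. Of these, 37 were tested, 17 were too dim and 14 were not named by a single-gene probe set. In limma's test, with p-values adjusted across the whole kept table (Benjamini-Hochberg), 2 fell, 3 rose and 32 did not pass. That is 13.5% called against 5.69% of all 7973 genes (3.52% lower and 2.17% higher). The list was chosen with earlier results of these data known, so nothing is read from this share. Of the 5 called genes, only Samd8 was called without each of the 5 pairs in turn. Values below are log2 fold changes, SCARKO minus control, with SE. The median was 0.03 over the list and 0.02 over all genes.

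In the de novo route to ceramide, 1 of 7 tested genes fell and 1 rose. Sptlc1, a subunit of serine palmitoyltransferase, the first enzyme of the pathway, fell to a signal of 159 ± 5.36 in SCARKO pools, against 189 ± 12.1 in control pools (SD, n = 5 each; log2 fold change -0.25, SE 0.05, limma adjusted p = 0.019). The groups did not overlap, and its other kept probe set gave -0.38 (adjusted p = 0.13). Cers4, another ceramide synthase gene, rose to 31.5 ± 7.79 in SCARKO pools, against 20.7 ± 3.28 in control pools (SD, n = 5 each; 0.58, SE 0.15, limma adjusted p = 0.045), higher in all 5 pairs with overlapping groups. Cers4 was dim in control pools, and with 16 added its log2 fold change was 0.36. The call of Sptlc1 ended without pair 3, 4 or 5, and that of Cers4 without pair 1, 2, 3 or 5 (adjusted p of 0.063 to 0.074 and of 0.057 to 0.16). The remaining 5, Sptlc2, Sptssa, Ormdl1, Cers2 and Degs1, lay between -0.08 and 0.10.

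In ceramide transfer and sphingomyelin metabolism, 1 of 8 fell. Samd8, which encodes a ceramide phosphoethanolamine synthase of the endoplasmic reticulum, fell to 139 ± 13.2 in SCARKO pools, against 181 ± 16.4 in control pools (SD, n = 5 each; -0.39, SE 0.06, limma adjusted p = 0.0030). SCARKO pools ranged from 121.1 to 155.2 and control pools from 167.5 to 208.7, without overlap, and Samd8 was called without each of the 5 pairs in turn (adjusted p of 0.0054 to 0.018). Smpdl3a, a relative of acid sphingomyelinase, had 0.52 (SE 0.14, limma adjusted p = 0.060). It was called only without pair 2 (0.68, adjusted p = 0.0092), and the adjusted p was 0.14 to 0.2 when any other pair was left out. Its signals were low, at 32.8 ± 4.78 in SCARKO pools and 23.0 ± 4.39 in control pools (SD, n = 5 each), and with 16 added its log2 fold change was 0.32.

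Among 8 tested genes of ceramide breakdown and sphingosine 1-phosphate, Sphk1, a sphingosine kinase gene, rose to 77.6 ± 10.8 in SCARKO pools, against 55.6 ± 9.0 in control pools (SD, n = 5 each; 0.48, SE 0.11, limma adjusted p = 0.026). It was higher in all 5 pairs with overlapping groups, and the call ended without pair 3, 4 or 5 (adjusted p of 0.063 to 0.096). The other sphingosine kinase gene, Sphk2, had -0.26 (SE 0.13, limma adjusted p = 0.27). Cerk, the ceramide kinase gene, had -0.16 (SE 0.07, limma adjusted p = 0.19). It was called only without pair 2 (-0.24, adjusted p = 0.028), and the adjusted p was 0.32 to 0.44 when any other pair was left out.

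Of 4 galactolipid genes none was called, with 1 at a limma p of 0.0082, 1 at 0.010 and the others above 0.05 before adjustment. Those 2 were Ugt8a and Gal3st1, which make and sulfate the galactolipid seminolipid of germ cells, at -0.30 (SE 0.09, adjusted p = 0.095) and -0.55 (SE 0.18, adjusted p = 0.11), each lower in 4 of 5 pairs. Both were called only without pair 4 (-0.41 and -0.72, limma adjusted p of 0.026 and 0.046). When any other pair was left out neither was called (adjusted p of 0.17 to 0.28 for Ugt8a and 0.17 to 0.25 for Gal3st1). Gal3st1 was dim, at 19.0 ± 6.61 in SCARKO pools and 27.1 ± 7.22 in control pools (SD, n = 5 each), and with 16 added its value was -0.31. Without the litter block the adjusted p of Ugt8a was 0.56 and that of Gal3st1 0.29. Of the 9 germ cell markers, Stag3 fell by 0.42 and the other 8 did not pass, with log2 fold changes of -0.29 for Tex101, -0.21 for Sycp3, 0.02 for Stra8, 0.04 for Ddx4, 0.06 for Dazl, 0.13 for Kit, 0.13 for Uchl1 and 0.24 for Dnd1. The part of germ cell content in the galactolipid values was not tested.

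Among 3 tested genes of ganglioside extension, St3gal2, a sialyltransferase acting on ganglioside galactose, rose to 235 ± 23.7 in SCARKO pools, against 190 ± 27.0 in control pools (SD, n = 5 each; 0.31, SE 0.07, limma adjusted p = 0.034). It was higher in all 5 pairs on each of its 3 probe sets, of which the other 2 had 0.22 and 0.17 (adjusted p of 0.097 and 0.23). The call ended without pair 1, 2, 4 or 5 (adjusted p of 0.063 to 0.11) and without the litter block (0.12). St6galnac6, another ganglioside sialyltransferase gene, had -0.11 (adjusted p = 0.60), and the other 7 genes of the class, St8sia1 among them, were too dim. Of 3 genes of neutral glycosphingolipids and 4 of lysosomal glycolipid hydrolysis none was called, and none had a limma p under 0.05 before adjustment. Gltp, the glycolipid transfer protein gene, had 0.15, Gba2, a glucosylceramidase gene, had -0.15, Ctsa, the protective protein of sialidase and galactosidase, had 0.09, and Gla, alpha-galactosidase A, had 0.03.

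**Figure D3:**
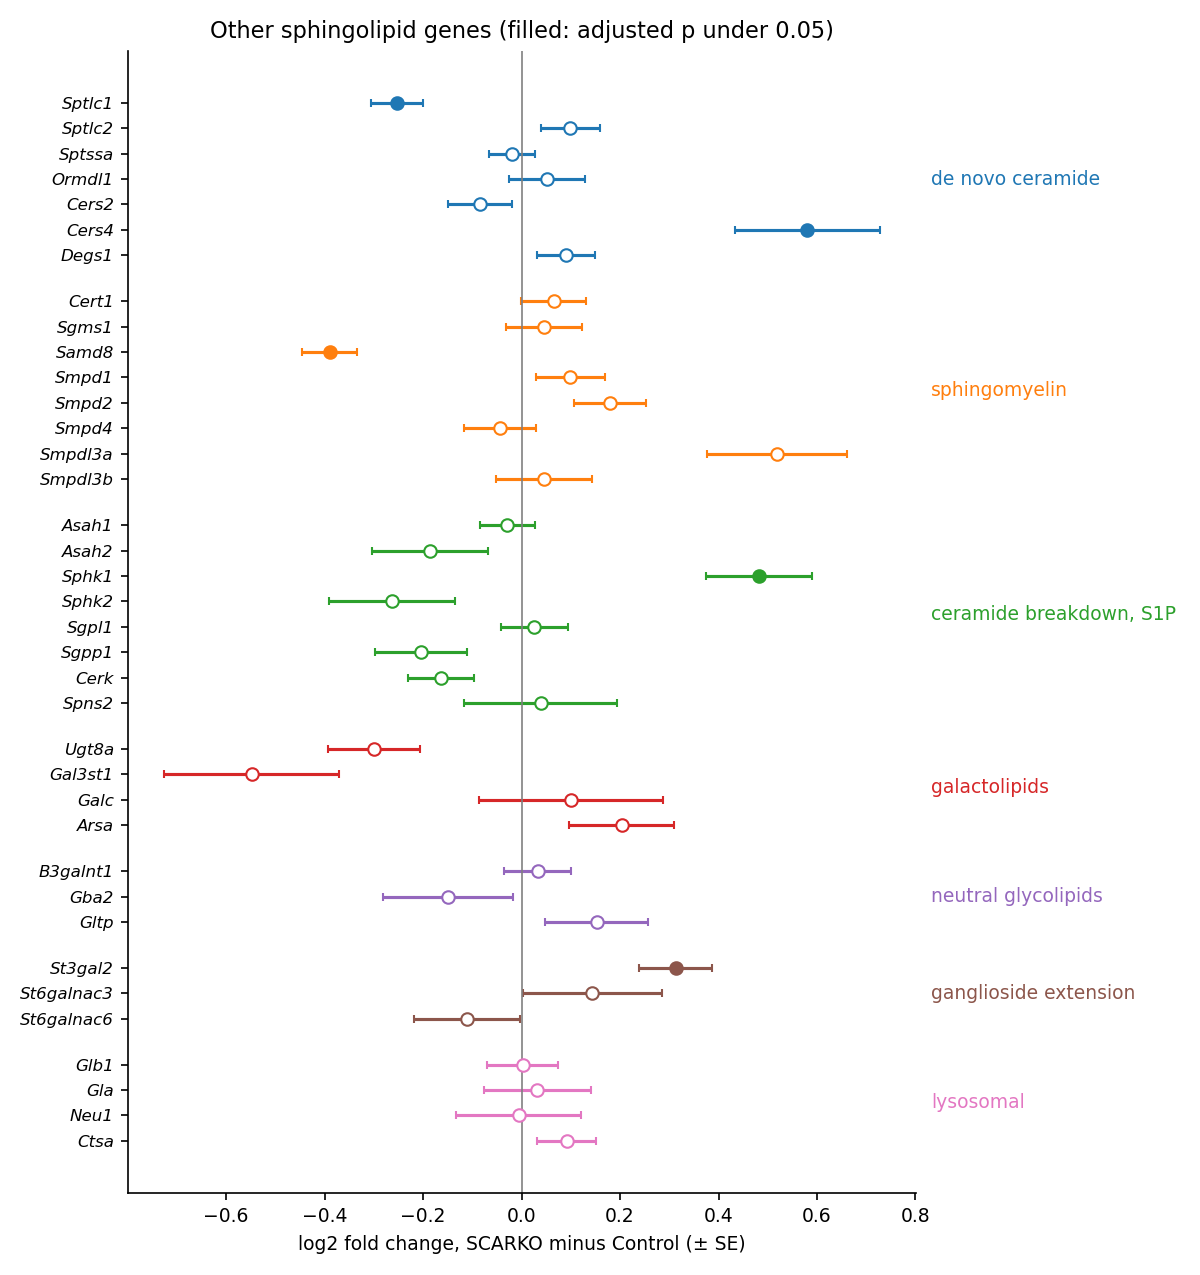
Log2 fold change (SCARKO minus control, ± SE from limma, 5 pairs) of the 37 tested genes of the wider sphingolipid list, grouped by step; filled points passed an adjusted p under 0.05. The filled points are Sptlc1 and Samd8 left of 0 and Cers4, Sphk1 and St3gal2 right of 0.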

How the data were processed

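Whole testis RNA from 10 pools was measured on Affymetrix arrays. The deposited values were linear signal intensities for each probe set; per the submitters' processing notes 8 arrays were processed with MAS5, with neither version nor parameters listed, and no tool is listed for the 2 arrays of pair 5. The trimmed mean (2% off each end) was 100 on every array. Intensities carry no counting depth. The 5 pools per group limit the precision.

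Gene symbols came from the platform annotation, updated by gene identifier to GRCm38.p6: 20380 probe sets named 1 gene, 691 several and 1555 none. After 64 array controls were removed, signals under 1 were set to 1, log2 was taken, and the dimmest 40% by mean were left out (mean log2 under 4.27, a signal of 19.3), which kept 13576. The model in limma 3.58.1 (R 4.3.3) held group and litter pair, with an intensity trend; tests were two-sided and Benjamini-Hochberg adjusted; the script was tested on simulated data. The pairs follow the labels' protocol of littermate pools; the deviations of same-numbered pools correlated at 0.27, 0.19, 0.19, 0.11 and 0.39 for pairs 1 to 5.

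Members, lists, tests and promoter motifs were chosen with earlier results of these data known. Named were all 8 members, every called gene of the wider list, the 2 of each class with the smallest p, and the 3 genes nearest in profile to 2 members; Sphk2, B4galt5, St8sia1 and the uncalled de novo genes were named to complete the account. Alternatives were no litter block, other filters, 16 added before log2, quantile normalization and leaving out each pair.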

Additional observations from a re-analysis of the deposited data

Results flagged for a closer look

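Of 62 groups of 5 pools examined (the 17 member probe sets and the 14 named genes of the wider list), 4 held 1 pool far from the rest by Dixon's criterion; chance gives about 1 in 20. For Cers5 the SCARKO pool of pair 2 had 348.2, where the other SCARKO pools had 302.4 to 315.3. For a dim probe set of B4galt6 the SCARKO pool of pair 4 had 9.6, where the others had 14.5 to 15.8. For Sptlc1 the control pool of pair 1 had 168.2, where the other control pools had 190.6 to 198.2, and it was the control pool nearest to the SCARKO range. For Cerk the control pool of pair 2 had 207.1, where the others had 243.6 to 255.8.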

How the results depend on the processing

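The 17 member log2 fold changes were recomputed without the litter block, with other filters, with 16 added, after quantile normalization and without each pair, wherever the probe set was kept. Under these the values of B4galnt1, B4galt6, Gm2a, Cers5 and Ugcg kept their sign. With groups from the descriptions, tried for the whole array only, the ratios of pairs 1 to 4 change sign by construction. The uncalled Psap probe sets changed sign without pair 5. B4galnt1 and 1 probe set of B4galt6 moved by more than the spread over pairs when 16 was added before log2. Nothing is read from the count of member probe sets past the threshold, since the members were chosen on this contrast. The count was 5, also without the litter block and without each pair, and 3 with the lowest 60% of probe sets left out, where B4galt6 was not tested. With 16 added it was 6, since the brighter probe set of B4galnt1 was then kept and past the threshold. With no filter on dim probe sets it was 1, and that probe set of B4galnt1 was not past the threshold. Over the whole array 704 probe sets were called, against 404 without the litter block and 38 with no filter, and between 304 and 743 without 1 pair. Groups from the descriptions gave 0 limma calls, with 611 at an unadjusted p under 0.05 against 2833 with the titles. The 611 is fewer than a share of 0.05 of the 13576 kept probe sets, which chance alone would give. Of the wider list 5 genes were called, against 3 without the litter block, 1 with no filter, and between 1 (without pair 5) and 5 (without pair 2). Without the litter block the calls of Cers4 (adjusted p = 0.13) and St3gal2 (0.12) ended. Why no filter lowers the counts was not tested. Signals near or under 19.3 limit the values of B4galnt1, B4galt6, Cers4, Smpdl3a and Gal3st1.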
